A study of Mus musculus with 11 samples.

Results

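Aquaporin-4 and the dystrophin-associated complex were followed through 8 genes: the water channels Aqp4 and Aqp1, dystrophin (Dmd), its homologue utrophin (Utrn), dystroglycan (Dag1), α-sarcoglycan (Sgca), β-sarcoglycan (Sgcb) and α-dystrobrevin (Dtna). All probe sets annotated to these symbols were taken, which gave 26 of the 45101 probe sets on the array. Of these, 25 passed the filter on dim signals, and the remaining one, Dtna 1453625_at, was not tested. Affymetrix arrays, 11 in all and in 4 groups, measured total RNA of the tibialis anterior, a fast limb muscle of the mouse. Denervated mutant muscle (3 arrays) carried runx1f/-, a floxed and a null allele of the transcription factor gene Runx1, together with MCK::cre. Denervated control muscle (3 arrays) carried runx1f/- without Cre. Innervated mutant muscle (2 arrays) and innervated control muscle (3 arrays) had these same genotypes with the nerve intact. MCK::cre places Cre recombinase under the muscle creatine kinase promoter, which is active in muscle fibres. All groups thus shared the runx1f/- alleles, and only mutants carried Cre, so an effect of Cre itself and one of Runx1 targeting cannot be told apart. Age, sex and strain were not given in the sources used here. Replicates are not stated to be separate animals, so p-values measure the spread between these arrays, which may be technical.

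Dystrophin links the actin cytoskeleton of the muscle fibre to dystroglycan in the membrane, and dystroglycan in turn binds laminins of the surrounding basement membrane. The sarcoglycans stabilise this assembly, dystrobrevin and the syntrophins attach to dystrophin inside the cell, and utrophin, which is concentrated at the neuromuscular junction, can take the place of dystrophin. Aquaporin-4 is the water channel of fast muscle fibres and is anchored at their membrane through syntrophin, whereas aquaporin-1 in muscle is mainly a channel of capillary endothelium.

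Signals are given in intensity units on the authors' linear scale, log2 changes are on the log2(signal + 16) scale with the standard error (SE) of the limma fit, and a change is called at a Benjamini-Hochberg adjusted limma p under 0.05 over all 26170 tested probe sets. Array medians ran from 442.5 to 604.6 intensity units, and precision is limited by how many arrays there are. Denervated arrays were denervated for 3 days by their titles, but for denervated control 3 the treatment note says 5 days. Calls of the members and Nos1 that change without that array are given with the value obtained without it. The brightest Runx1 probe set, 1422864_at, averaged 21346 ± 1593 in denervated mutant, 24583 ± 1216 in denervated control, 342 ± 75 in innervated mutant and 401 ± 192 in innervated control muscle (SD, n = 3, 3, 2 and 3). On this probe set and on 1427650_a_at (1659 ± 513 in denervated mutant, 3442 ± 713 in denervated control muscle) and 1452530_a_at (1374 ± 198 against 2534 ± 832), denervated mutant arrays lay below denervated control arrays without overlap; on the other 3 Runx1 probe sets they overlapped. Which exons were floxed and where these probes lie was not given in the sources used here, so these signals do not check the mutant label. Each of the 12 muscle fibre markers was tested and none was at 0 on any array; their summed signal was 1479060 to 1816270 in denervated mutant, 1536310 to 2080200 in denervated control, 2424670 to 2805140 in innervated mutant and 2414340 to 2645620 in innervated control muscle. Hybridisation spike-in controls averaged 13.29 log2 units in denervated mutant and 12.82 in denervated control arrays, against 13.81 in innervated mutant and 13.77 in innervated control arrays. They include the CreX controls, built on the cre gene, which only the mutants carry as MCK::cre. Whether mutant RNA adds to their signal was not tested, so genotype comparisons under spike-in centring carry that limit. Centring the arrays on these spike-ins shifted the median change of all probe sets to 0.42 for denervation in mutant, 0.93 for denervation in control and -0.48 for genotype in denervated muscle, so every change below is relative to the bulk of the probe sets.

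Annotated promoter windows of dystrophin, utrophin and aquaporin-1 are shown because dystrophin and aquaporin-1 fell after denervation while utrophin did not pass the test. The windows run from 250 bases before to 50 bases after the annotated start, 5′ to 3′ on the gene's strand, from RefSeq on build GRCm38.p6. Capitals mark matches to the RUNX core TGTGGT, the E-box CANNTG or the CArG box; the N-box TTCCGG was searched as well, each on both strands.
Dmd, chrX:82948620-82948919, plus strand: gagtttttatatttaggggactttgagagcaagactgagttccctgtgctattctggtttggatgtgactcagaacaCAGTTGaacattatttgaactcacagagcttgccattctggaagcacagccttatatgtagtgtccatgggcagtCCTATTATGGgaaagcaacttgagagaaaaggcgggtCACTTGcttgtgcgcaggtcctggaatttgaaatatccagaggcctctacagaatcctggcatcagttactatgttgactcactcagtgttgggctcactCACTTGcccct
Utrn, chr10:12861686-12861985, minus strand: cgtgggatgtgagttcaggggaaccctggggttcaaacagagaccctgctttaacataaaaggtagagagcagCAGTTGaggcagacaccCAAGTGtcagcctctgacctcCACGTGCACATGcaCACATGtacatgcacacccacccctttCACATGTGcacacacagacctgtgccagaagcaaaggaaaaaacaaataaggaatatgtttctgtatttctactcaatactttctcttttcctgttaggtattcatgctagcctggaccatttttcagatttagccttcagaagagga
Aqp1, chr6:55336049-55336348, plus strand: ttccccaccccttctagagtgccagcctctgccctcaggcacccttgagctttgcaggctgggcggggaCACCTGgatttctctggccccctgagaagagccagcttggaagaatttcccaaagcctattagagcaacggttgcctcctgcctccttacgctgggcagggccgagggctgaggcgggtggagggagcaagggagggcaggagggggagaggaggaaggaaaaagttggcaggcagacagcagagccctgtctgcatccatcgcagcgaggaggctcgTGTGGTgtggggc
The table holds 2 windows for Dmd; the second, chrX:85048045-85048344, held 0 matches to any of these motifs and is not shown. The first held a CArG box starting 98 bases before the start and 3 E-boxes, and the Utrn window held 7 E-boxes, of which the last 2 overlap. The Aqp1 window held 1 E-box and 1 RUNX core, which was not found in the windows of Dmd, Utrn, Dag1, Sgca and Sgcb. Among 32851 promoter windows of the same length, the RUNX core was found in 16.8%, the E-box in 72.3%, the N-box in 14.9% and the CArG box in 1.63%. Promoter entries were found for 6 of the 8 genes; Aqp4 and Dtna are named only. The Dmd windows and the Utrn window lie inside the annotated genes (chrX:82814664-85205050 and chr10:12382187-12869888), so other starts lie upstream of them. Which starts this muscle uses was not tested. A match describes letters in these windows and nothing about binding.

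After denervation, changes among these genes ran downward. The members were chosen with earlier results of these data known, so their counts beside the shares of all probe sets are a description. In mutant muscle 17 of the 25 tested probe sets fell and 0 rose, where 26.3% of all tested probe sets changed, 13.3% falling and 13.1% rising. In control muscle 12 fell and 0 rose, where 29.3% of all changed, 14.4% falling and 14.9% rising. These 25 probe sets repeat 8 genes, so they are not independent. By the brightest probe set of each gene, 5 of 8 genes fell in mutant muscle, where 30.5% of all genes changed, 13.8% falling. In control muscle 3 of 8 genes fell, where 34.4% of all genes changed, 16.4% falling. That control count is close to the share of all genes that changed in either direction. Of the 17 and 12 probe sets, 11 fell in both genotypes, which is 64.7% of those that fell in mutant and 91.7% of those that fell in control muscle. Each comparison has its own innervated arrays. With the ratio of 3′ to 5′ control probe sets as a covariate the counts were 9 in mutant and 5 in control muscle. That ratio separated denervated from innervated arrays without overlap, so this covariate and denervation cannot be fully told apart. Between the genotypes in denervated muscle 7 of 25 differed, 2 higher and 5 lower in mutant, where 1.83% of all tested probe sets differed, 0.806% higher and 1.02% lower. That count was 4 without denervated control 1, 5 without denervated control 3, 3 without denervated mutant 2, 4 without the variance trend and 14 with spike-in centring. The 7 were 2 probe sets of Aqp4, higher in mutant, and 4 of Dtna and 1 of Dmd, lower in mutant. By the brightest probe set 2 of 8 genes differed, 1 higher and 1 lower, where 2.19% of all genes differed, 1.05% higher and 1.14% lower. In innervated muscle 0 of 25 differed between the genotypes, and 0 of all 26170 did, by limma with the trended prior. At an unadjusted p under 0.05 the innervated comparison held 0 of the 25 and 1030 of all probe sets, and limma without the trend called 3 of all. Mutant and control arrays overlapped on all 25 in innervated muscle, where 15.6% of all tested probe sets separated them in one direction or the other.

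**Figure D1:**
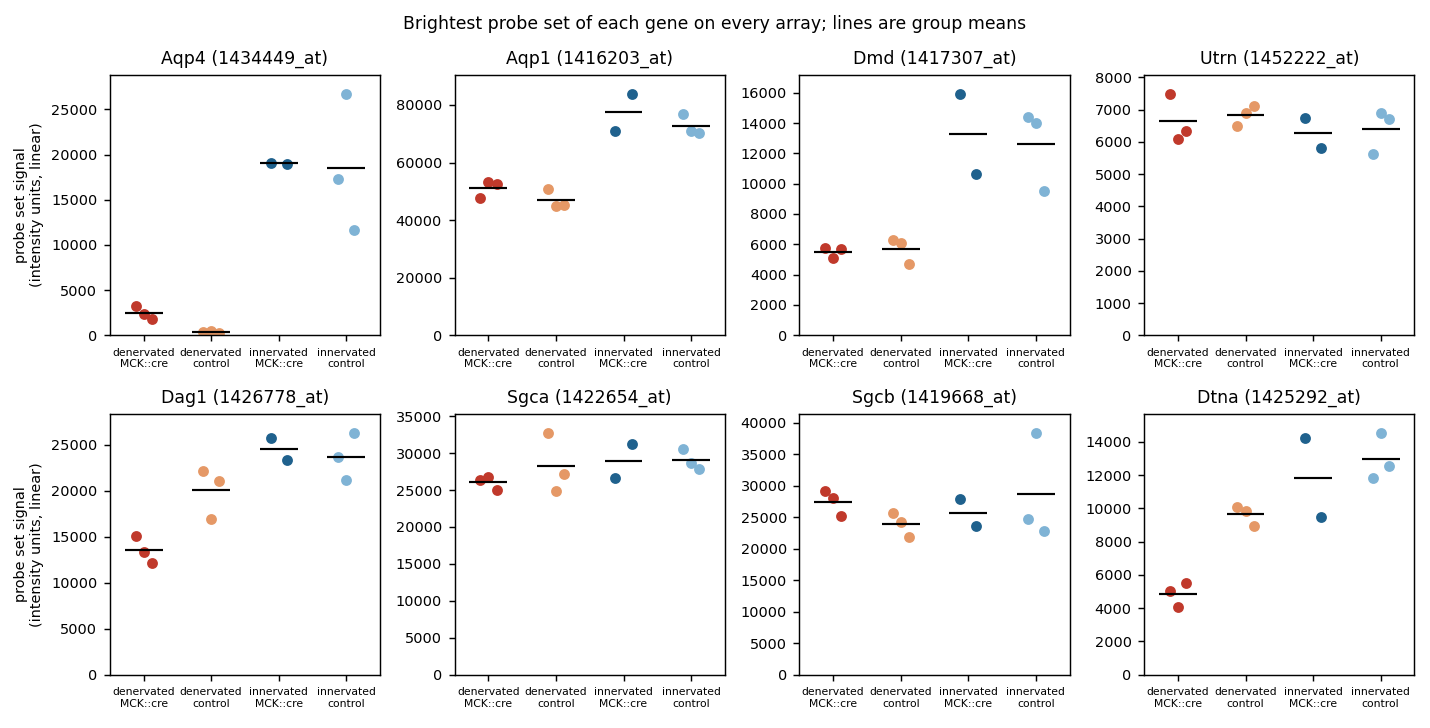
Signal (intensity units, linear axis from 0) of the brightest probe set of each of the 8 genes on every array, with points for arrays and lines for group means, groups ordered denervated mutant, denervated control, innervated mutant, innervated control. Aqp4 sits between 1846.7 and 3238.4 in denervated mutant arrays, between 276.9 and 460.1 in denervated control arrays; the lowest innervated array reads 11690.4.

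Aquaporin-4 had the largest change of the 8 genes. Its brightest probe set, 1434449_at, read 3238.4, 2334.5 and 1846.7 in denervated mutant arrays, 308.8, 460.1 and 276.9 in denervated control arrays, 19083.9 and 18998.8 in innervated mutant arrays, and 17249.3, 26731.7 and 11690.4 in innervated control arrays. The denervated groups did not overlap with each other or with the innervated groups, whose own arrays overlapped. In mutant muscle Aqp4 fell by 2.97 log2 units (SE 0.32, 7.86-fold, limma adjusted p = 2.29e-05). In control muscle it fell by 5.62 (SE 0.29, 49.2-fold, limma adjusted p = 3.12e-08). Denervated mutant muscle kept 13.0% of the mean of innervated mutant muscle, against 1.88% in denervated control relative to innervated control muscle. In bulk muscle, fewer cells of a type and less RNA per cell cannot be told apart.

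Between the genotypes Aqp4 was 2.77 log2 units higher in denervated mutant than in denervated control muscle (SE 0.29, 6.80-fold, limma adjusted p = 0.000284), and this call held in all 22 alternatives tried, where the change lay between 2.15 and 2.97. In innervated muscle the difference was 0.12 (95% interval -0.57 to 0.81). The interaction, the change after denervation in mutant muscle less that in control muscle, was 2.65 (SE 0.43, 95% interval 1.72 to 3.58, limma adjusted p = 0.0257), a test in which 0.248% of all probe sets passed. That call held in 15 of 22 alternatives and was lost without the variance trend and on leaving out any of denervated control 1, denervated mutant 1 or 2, innervated mutant 1 or 2, or innervated control 1. Its adjusted p ranged from 0.0101 to 0.109 and its value from 2.04 to 2.94. On 2 denervated control arrays the signal fell inside 13.8 to 440, the span of the Trp control probe sets, which are built on a bacterial gene, so the size of the fold rests on background in these arrays.

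The other Aqp4 probe sets went the same way with less precision. Probe set 1425382_a_at read 1591.2, 2351.1 and 1882.5 in denervated mutant, 21.2, 384.4 and 250.9 in denervated control, 9094.8 and 10390.7 in innervated mutant, and 9922.9, 10195.4 and 3778.6 in innervated control arrays. It fell by 2.33 (limma adjusted p = 0.0342) in mutant muscle. In control muscle it fell by 5.52 (SE 0.66, limma adjusted p = 4.03e-05), and it was 3.61 higher in denervated mutant than in denervated control muscle (SE 0.66, limma adjusted p = 0.0130). The genotype call was lost without denervated mutant 2 or 3, and the call in mutant muscle on leaving out any one of the 5 mutant arrays. All 3 denervated control arrays lay within the Trp range on this probe set. Probe set 1447745_at read 842.2, 692.5 and 569.4 in denervated mutant arrays, against 294.9, 305.9 and 291.7 in denervated control arrays; its innervated arrays read 2966.7 and 4004.8 in mutant and 2230.0, 5843.9 and 711.8 in control muscle. It fell in mutant (-2.29, limma adjusted p = 0.0114, lost without innervated mutant 2) and in control muscle (-2.76, limma adjusted p = 0.00139). With the 3′ to 5′ covariate both calls were lost, at -1.58 in mutant (limma adjusted p = 0.257) and -2.14 in control muscle (limma adjusted p = 0.0708). The genotype difference of 1447745_at in denervated muscle, 1.18, did not pass (limma adjusted p = 0.413), although the arrays did not overlap. Innervated control 3 lay among the denervated mutant arrays. For the interaction these probe sets gave 3.19 (limma adjusted p = 0.342) and 0.47 (limma adjusted p = 0.941).

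**Figure D2:**
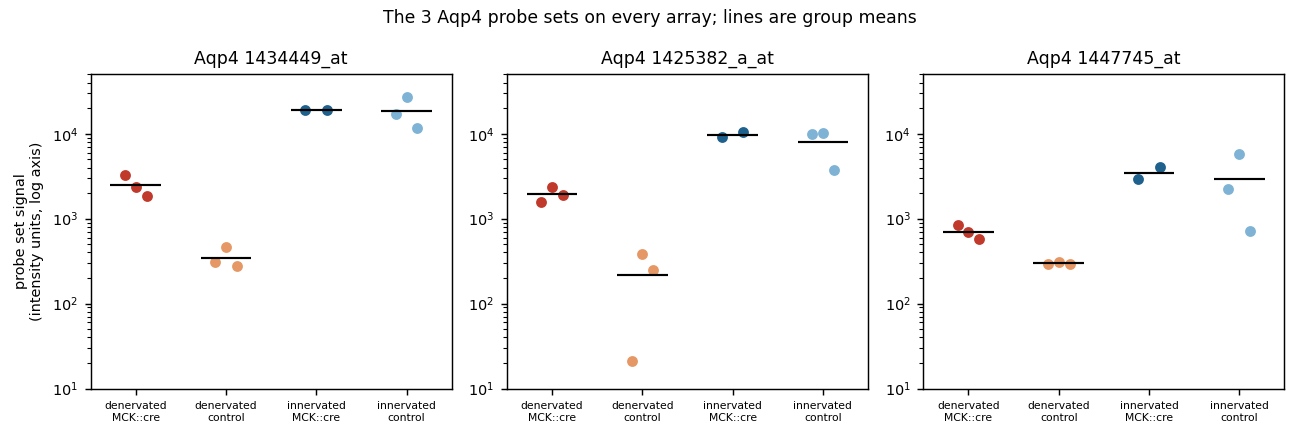
Signal of the 3 Aqp4 probe sets on each array on a logarithmic axis, denervated mutant left of denervated control and innervated mutant left of innervated control, with lines for group means. Denervated mutant arrays stand above denervated control arrays on all 3 probe sets, and 8 of the 9 denervated control readings lie between 13.8 and 440, the span of the Trp controls.

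Aquaporin-1, the endothelial channel, fell in both genotypes. Probe set 1416203_at read 47775.6, 53332.8 and 52526.2 in denervated mutant, 50941.7, 44847.2 and 45148.2 in denervated control, 70956.7 and 83864.3 in innervated mutant, and 76700.0, 70820.5 and 70411.8 in innervated control arrays. Denervated and innervated arrays did not overlap, while the genotypes did. The change was -0.59 (SE 0.13, limma adjusted p = 0.00474) in mutant and -0.63 (SE 0.12, limma adjusted p = 0.00119) in control muscle, and the interaction was 0.04 (95% interval -0.34 to 0.41). With centring on the spike-ins neither call held, at -0.08 in mutant (limma adjusted p = 0.841) and 0.32 in control muscle (limma adjusted p = 0.171). With the 3′ to 5′ covariate neither held either (-0.49 in mutant and -0.54 in control muscle), and in mutant muscle the call was also lost with median scaling (-0.28) and without innervated mutant 2 (-0.47). Of 14 endothelial markers, 6 fell in mutant and 8 in control muscle and none rose, with medians of -0.53 in mutant and -0.58 in control muscle. Their summed signal was 49426 to 53939 in denervated mutant, 45907 to 53530 in denervated control, 75223 to 76861 in innervated mutant and 73099 to 78945 in innervated control arrays. None of these markers was at 0 on any array. The part of endothelial cells in the Aqp1 change was not tested.

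Dystrophin, the cytoskeletal link, fell after denervation in both genotypes. Probe set 1417307_at read 5740.1, 5087.4 and 5661.0 in denervated mutant, 6287.6, 6092.3 and 4694.6 in denervated control, 15925.2 and 10617.6 in innervated mutant, and 14422.8, 14015.4 and 9486.9 in innervated control arrays. All denervated arrays lay below all innervated arrays, and the genotypes overlapped within each state. It fell by 1.24 in mutant (SE 0.22, limma adjusted p = 0.00116) and by 1.14 in control muscle (SE 0.20, limma adjusted p = 0.000774), leaving 41.4% of the innervated mean in mutant and 45.0% in control muscle. Probe set 1448665_at read 4818.4, 3912.5 and 4232.4 in denervated mutant, 5062.8, 6324.1 and 5427.2 in denervated control, 12329.4 and 10908.7 in innervated mutant, and 10312.1, 14949.4 and 10658.5 in innervated control arrays. It fell by 1.43 in mutant and by 1.08 in control muscle (limma adjusted p = 0.000298 in control). With spike-in centring the control changes of these probe sets were -0.18 and -0.13 and were not called. With that covariate for the 3′ to 5′ ratio, 1417307_at missed the threshold in both genotypes; the ratio was -0.066 to 0.039 log2 units on denervated and -0.164 to -0.082 on innervated arrays.

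A dimmer Dmd probe set also differed by genotype after denervation. Probe set 1443315_at read 1267.1, 1640.3 and 1871.7 in denervated mutant arrays, against 2729.3, 2627.8 and 3243.0 in denervated control arrays, which do not overlap. Innervated arrays read 4768.7 and 4349.6 in mutant and 4020.0, 4483.1 and 3956.2 in control muscle. It was 0.85 lower in denervated mutant than in denervated control muscle (SE 0.17, limma adjusted p = 0.0180), but the call was lost in 6 of 22 alternatives, among them leaving out denervated control 1, denervated mutant 1 or 2, or denervated control 3 (-0.76, limma adjusted p = 0.0636). For 1417307_at that difference was -0.04 (95% interval -0.47 to 0.39). The sources used here do not place these probes within the gene. The dimmest tested Dmd probe set, 1430320_at, fell in mutant (-1.40, limma adjusted p = 0.0367, lost in 10 of 21 alternatives, among them without either innervated mutant array, denervated mutant 2 or denervated mutant 3) and had a change of -0.88 in control muscle (limma adjusted p = 0.127). On this probe set all 3 denervated mutant arrays and 2 denervated control arrays lay within the Trp range, so the size of its changes rests on background there.

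Utrophin, the homologue of dystrophin, did not pass in any comparison. Probe set 1452222_at read 7487.9, 6099.1 and 6332.7 in denervated mutant, 6505.6, 6886.0 and 7107.4 in denervated control, 6752.3 and 5822.3 in innervated mutant, and 5620.8, 6881.4 and 6697.8 in innervated control arrays. The 4 groups overlapped. The change was 0.08 in mutant (95% interval -0.26 to 0.41) and 0.10 in control muscle (95% interval -0.20 to 0.40, limma adjusted p = 0.644), and the genotype difference in denervated muscle was -0.05 (95% interval -0.35 to 0.26). With spike-in centring the control value was 1.05 and passed. Probe set 1427569_a_at changed by -0.44 in mutant muscle, where denervated and innervated arrays did not overlap, and by 0.39 in control muscle. Neither passed, although with spike-in centring the control value was 1.34 and passed. For 1426892_at the changes were -0.11 in mutant and -0.48 in control muscle. All 3 denervated mutant and 2 denervated control arrays lay within the Trp range on it. Within each array, the log2 signal of Dmd 1417307_at minus that of Utrn 1452222_at cancels an array-wide scaling factor; it was chosen after the values were seen. It lay between -0.60 and -0.05 on the 6 denervated arrays whereas the 5 innervated arrays gave 0.50 to 1.36. The means differed by -1.27, a description with no test, since the pair was picked for its difference.

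Dystroglycan, the membrane receptor for laminin, fell in mutant muscle. Probe set 1426778_at read 15076.4, 13332.6 and 12091.6 in denervated mutant, 22166.3, 16919.6 and 21096.4 in denervated control, 25704.3 and 23378.3 in innervated mutant, and 23661.1, 21191.5 and 26264.8 in innervated control arrays. Denervated mutant arrays were the lowest 3 of the 11, and denervated and innervated control arrays overlapped. The change was -0.87 in mutant (SE 0.16, limma adjusted p = 0.00157) and -0.24 in control muscle (95% interval -0.56 to 0.07, limma adjusted p = 0.232). Of its 4 probe sets, 3 fell in mutant and 0 passed in control muscle; 2 of these, 1456131_x_at and 1423872_a_at, lost the call without innervated mutant 1 or denervated mutant 2, and 1423872_a_at also without denervated mutant 1. With spike-in centring 1426778_at changed by -0.35 in mutant, where the call was lost (limma adjusted p = 0.342), and by 0.71 in control muscle, and the other two calls in mutant muscle were lost as well. In denervated muscle all 4 had mutant arrays below control arrays without overlap, as did 10.1% of all tested probe sets, at -0.57 to -0.46, but none passed (limma adjusted p 0.0763 to 0.219). With spike-in centring all 4 passed, and 1426778_at also passed without innervated control 2. The interaction of 1426778_at was -0.62 (95% interval -1.09 to -0.15, limma adjusted p = 0.426), so a difference of the denervation change between genotypes was not called.

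The sarcoglycans, membrane partners of dystroglycan, did not pass on their brightest probe sets. Sgca 1422654_at read 26425.9, 26815.9 and 25073.3 in denervated mutant, 32721.6, 24909.2 and 27206.8 in denervated control, 26648.8 and 31221.0 in innervated mutant, and 30524.1, 28612.6 and 27905.5 in innervated control arrays. The mutant change was -0.14 (limma adjusted p = 0.491) and the control change -0.05 (95% interval -0.32 to 0.23, limma adjusted p = 0.829), and neither passed. Sgcb 1419668_at read 29168.1, 28065.8 and 25261.7 in denervated mutant, 25702.4, 24323.3 and 21844.0 in denervated control, 27840.2 and 23677.7 in innervated mutant, and 24782.9, 38381.7 and 22796.5 in innervated control arrays. The groups overlapped and its change did not pass in either genotype. Of the 3 Sgcb probe sets, 1436678_at fell in control muscle (-0.66, limma adjusted p = 0.0105) and the other two did not pass, so the probe sets of this gene disagree. With spike-in centring 1436678_at was not called (0.29), Sgca passed at 0.91 in control muscle, and Sgcb 1419668_at passed at 0.61 in mutant and 0.73 in control muscle.

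α-Dystrobrevin, the cytoplasmic partner of dystrophin, fell after denervation and was lower in denervated mutant than in denervated control muscle. Probe set 1425292_at read 5001.9, 4073.6 and 5495.4 in denervated mutant, 10087.1, 9863.4 and 8963.5 in denervated control, 14246.2 and 9465.3 in innervated mutant, and 11841.6, 14525.1 and 12549.0 in innervated control arrays. Denervated mutant arrays were the lowest 3 of the 11. It was 1.00 lower in denervated mutant than in denervated control muscle (SE 0.17, 1.99-fold, limma adjusted p = 0.00842). Without denervated control 1 or denervated mutant 2 this call was lost, at adjusted p up to 0.0544. Denervation lowered it by 1.27 in mutant (limma adjusted p = 0.000342), and in control muscle the change was -0.42 (limma adjusted p = 0.0804), which passed with the replicate number as a block in the control arrays alone and without either innervated mutant array.

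Further Dtna probe sets repeated this order, not all of them with a genotype call. Probe set 1456069_at read 1165.9, 1096.9 and 1428.0 in denervated mutant, 2765.0, 2966.8 and 2793.8 in denervated control, 6490.2 and 4826.7 in innervated mutant, and 5970.4, 7962.8 and 4734.7 in innervated control arrays. Probe set 1427588_a_at read 1076.6, 1027.8 and 1280.5 in denervated mutant, 2936.2, 2486.0 and 2066.7 in denervated control, 6022.4 and 5002.9 in innervated mutant, and 5829.0, 6528.5 and 4507.7 in innervated control arrays. On both, denervated mutant lay below denervated control, which lay below all innervated arrays. Both were lower in denervated mutant than in denervated control muscle (-1.21 and -1.13, limma adjusted p = 0.00650 and 0.00680) in all 22 alternatives. Both also fell in mutant (-2.18 and -2.27) and in control muscle (-1.09 and -1.16). With spike-in centring the control changes were -0.14 and -0.21 and were not called (limma adjusted p = 0.540 and 0.393), and 1456069_at missed the threshold in control muscle with the 3′ to 5′ covariate as well (-0.74, limma adjusted p = 0.0751). Probe set 1429768_at was 1.10 lower in denervated mutant than in denervated control muscle (limma adjusted p = 0.0361), a call lost in 8 of 22 alternatives, among them without denervated control 1, innervated control 1 or any denervated mutant array, or without denervated control 3 (-0.94, limma adjusted p = 0.109). Of 6 tested Dtna probe sets, 6 fell in mutant and 4 in control muscle, and 4 differed by genotype in denervated muscle. By genotype 1419223_a_at (-0.61, limma adjusted p = 0.168) and 1426066_a_at (-0.57, limma adjusted p = 0.425) did not pass. After denervation in control muscle 1419223_a_at changed by -0.06 (limma adjusted p = 0.852), and its arrays overlapped. The mutant call of 1419223_a_at was lost with spike-in centring (-0.25), median scaling and the 3′ to 5′ covariate, and without either innervated mutant array or denervated mutant 1. The interactions ran from -1.11 to -0.71 and none passed (limma adjusted p 0.180 to 0.693), although 1456069_at did with spike-in centring (-1.52, limma adjusted p = 0.0399). The untested 1453625_at read 69.4 to 297.2 over all arrays.

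**Figure D3:**
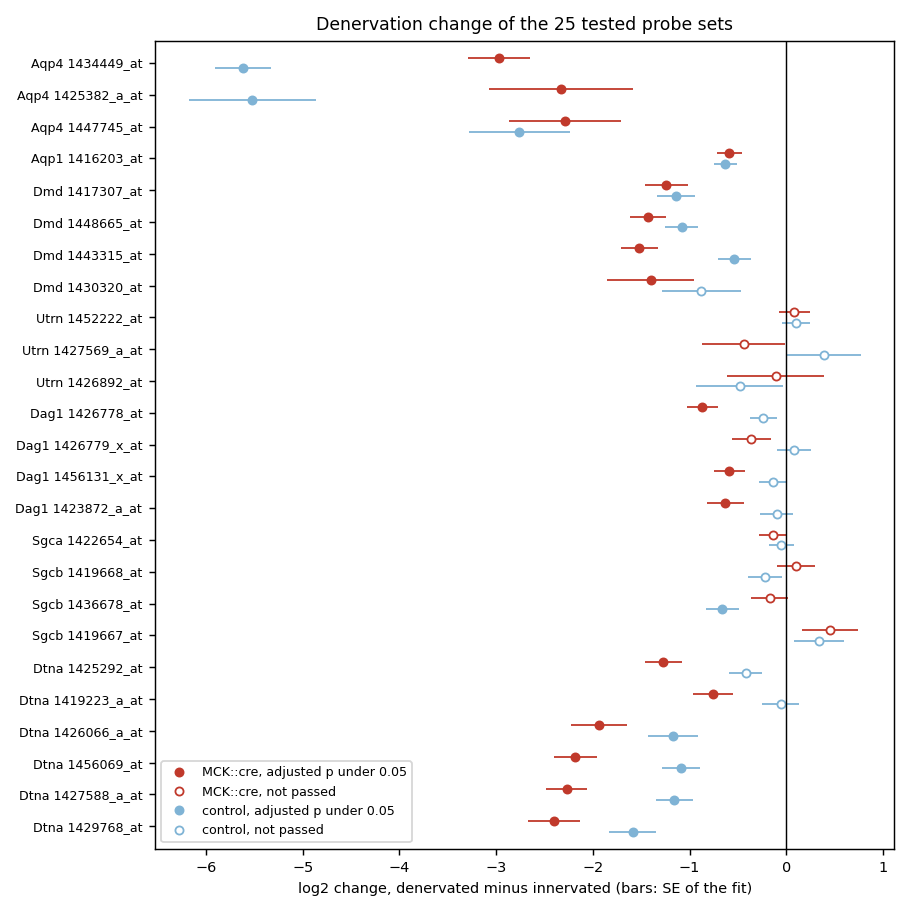
Log2 change after denervation of every tested probe set, mutant above control, with bars for the SE of the limma fit and filled points for adjusted p under 0.05. Aqp4 lies far below 0 in both genotypes, the called Dmd probe sets below 0, and no probe set of Utrn (-0.48 to 0.39) or Sgca passed.

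**Figure D4:**
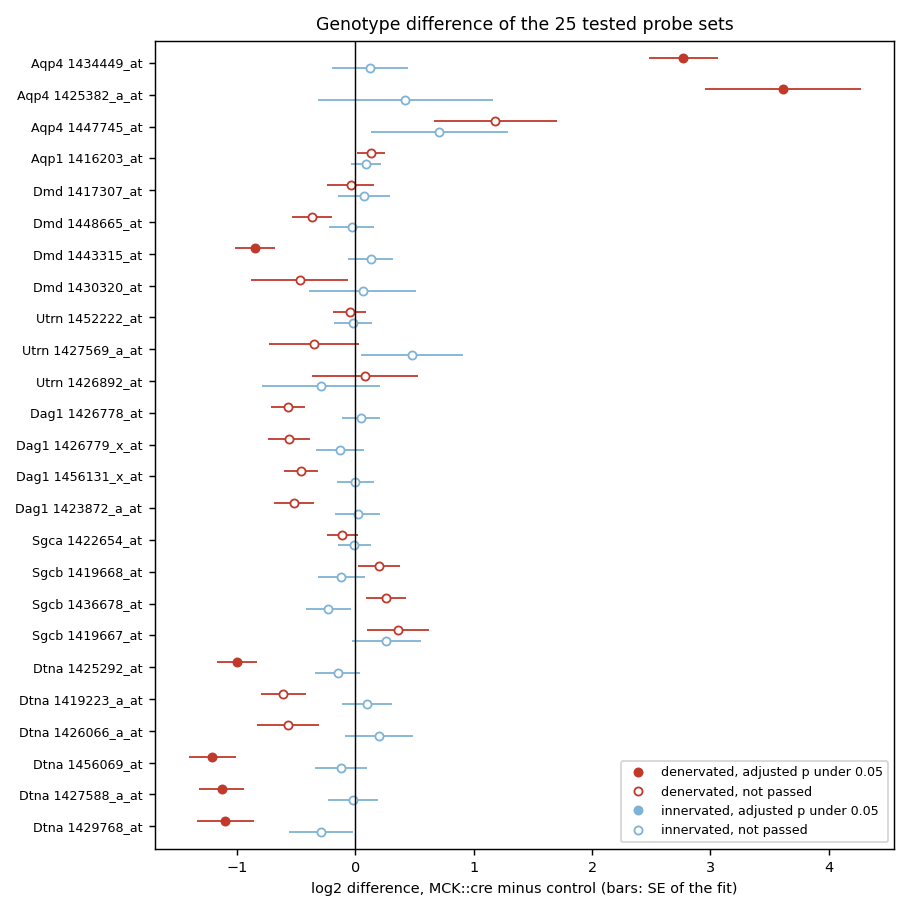
Log2 difference between MCK::cre mutant and control muscle for every tested probe set, denervated above innervated, with bars for the SE of the limma fit and filled points for adjusted p under 0.05. Aqp4 lies above and Dtna below 0 in denervated muscle, and no probe set passed in innervated muscle.

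Other genes listed with the complex changed in mixed directions. The lists were chosen with earlier results of these data known, and each gene was represented by its brightest tested probe set, for which 30.5% of all genes changed after denervation in mutant (16.7% higher, 13.8% lower), 34.4% in control (18% higher, 16.4% lower) and 2.19% by genotype in denervated muscle (1.05% higher, 1.14% lower). Of 10 tested genes listed with the complex, 4 fell and 1 rose in mutant muscle (median -0.56). In control muscle 3 fell and 1 rose (median -0.23), against a median of -0.01 over all genes in each. Sarcospan (Sspn), a small membrane protein of the complex, fell by 1.06 in mutant and by 1.26 in control muscle (SE 0.13, limma adjusted p = 1.37e-05 in control). δ-Sarcoglycan (Sgcd) fell by 1.35 in mutant and by 1.23 in control muscle; both calls were lost with the 3′ to 5′ covariate, and the mutant call without innervated mutant 2 (limma adjusted p = 0.0828). Caveolin-3 (Cav3), a protein of membrane pits in muscle, fell by 0.63 in mutant and by 0.54 in control muscle. The 1 gene of the list that rose in control muscle was the chaperone αB-crystallin (Cryab, 0.58), which is not itself a part of the complex. The Cav3 call was lost in 7 of 22 alternatives in mutant and 7 of 23 in control muscle, and the Cryab call in 11 of 23, in each case on leaving out any of several single arrays. Neuronal nitric oxide synthase (Nos1), which binds the complex through syntrophin, rose by 0.89 in mutant muscle (limma adjusted p = 0.00352) and changed by 0.01 in control muscle. Nos1 read 27624.6, 22566.1 and 28648 in denervated mutant arrays, against 12440.6, 17847.7 and 15992.6 in denervated control arrays. That difference of 0.78 (SE 0.17, limma adjusted p = 0.0314) was called in 15 of 22 alternatives and lost without denervated control 1 or any denervated mutant array, without denervated control 3 (0.81, limma adjusted p = 0.0581) and with spike-in centring (0.31). Of the other Nos1 probe sets, 1438483_at changed by 1.08 in mutant and 0.04 in control muscle, and 1422949_at by 0.13 (limma adjusted p = 0.757) and -0.20; by genotype in denervated muscle 1438483_at passed (1.07, limma adjusted p = 0.00712) and 1422949_at did not (0.84, limma adjusted p = 0.124). The interaction for Nos1 was 0.88 and did not pass (limma adjusted p = 0.270).

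Among dystroglycan's ligands 4 of 9 fell and 1 rose in mutant muscle, and 5 fell and 1 rose in control muscle, with none differing by genotype. Laminin β2 (Lamb2) fell by 1.32, laminin β1 (Lamb1) by 1.02, laminin α2 (Lama2) by 0.74 and laminin γ1 (Lamc1) by 0.67 in control muscle, and biglycan (Bgn) rose by 0.88. Of the 12 tested genes that glycosylate dystroglycan, 2 rose and 2 fell in mutant and 4 rose and 3 fell in control muscle; B3galnt2 rose by 0.88 and Dpm2 by 0.69, and Pomgnt2 fell by 0.83 and B4gat1 by 0.67 in control muscle. The 3 other aquaporins tested did not pass in any comparison, and Aqp7 stood at -0.93 in control muscle (limma adjusted p = 0.0502). With spike-in centring, the falls named for the complex, ligand, glycosylation and linkage lists in control muscle missed the threshold. In mutant muscle Sspn (-0.54, limma adjusted p = 0.0830), Sgcd (-0.83, limma adjusted p = 0.142) and Cav3 (-0.12, limma adjusted p = 0.787) missed it too. Of 14 integrin and membrane linkage genes, 2 rose and 4 fell in mutant muscle, and 4 rose and 4 fell in control muscle. Synemin (Synm), an intermediate filament protein, fell by 1.31, talin-2 (Tln2) by 1.12 and plectin (Plec) by 0.62 in control muscle, whereas dysferlin (Dysf), a membrane repair protein, rose by 1.22. Integrin α7 (Itga7), a laminin receptor of muscle fibres, read 3881.8, 2988.3 and 3287.8 in denervated mutant arrays, against 9313.1, 7349.9 and 8216.3 in denervated control arrays. It was 1.29 lower in denervated mutant than in denervated control muscle (SE 0.15, limma adjusted p = 0.000720) in all 22 alternatives. It fell by 0.51 in mutant muscle, a call lost in 10 of 22 alternatives, among them without either innervated mutant array or denervated mutant 2 or 3. It rose by 0.52 in control muscle, a call lost without denervated control 1 or innervated control 1. The interaction, -1.04, did not pass (limma adjusted p = 0.108).

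**Figure D5:**
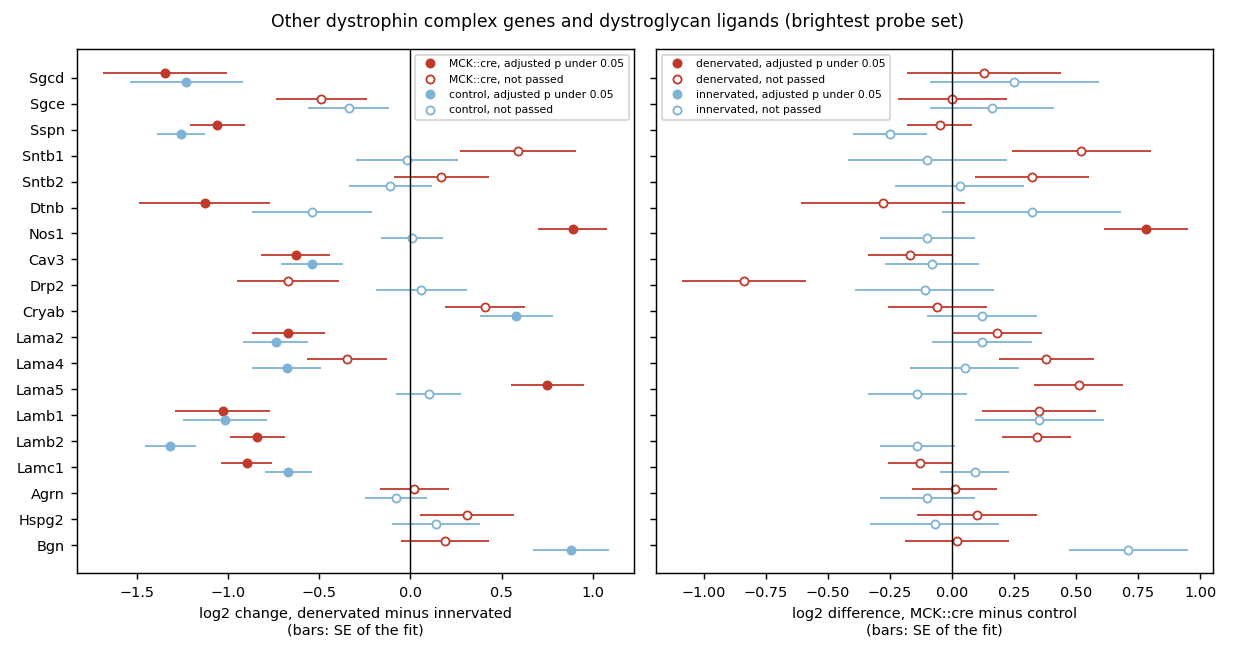
Log2 change after denervation, mutant above control (left panel), and log2 difference of mutant from control, denervated above innervated (right panel), for the other genes listed with the complex and dystroglycan's ligands, with bars for the SE of the limma fit. Sspn and Lamb2 lie below 0 in both genotypes and Nos1 stands at 0.89 in mutant, against 0.01 in control muscle.

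Several marker lists of cell types moved with denervation as well, where 16.7% of all genes rose and 13.8% fell in mutant and 18% rose and 16.4% fell in control muscle. Of 9 smooth muscle markers, 7 fell in mutant and 8 in control muscle, and of 9 macrophage markers, 7 rose in mutant and 4 in control muscle. Muscle fibre markers fell in 11 of 12 cases in mutant and 9 of 12 in control muscle. Of 6 satellite cell markers, 3 rose in mutant and 2 in control muscle, and of 7 Schwann cell markers, 2 rose and 2 fell in each genotype. Of 6 fibroblast markers, 1 fell in mutant and 0 in control muscle, and neither of the 2 erythroid markers tested passed in any comparison. Between the genotypes in denervated muscle, the fibre myosin Myh2 was lower in mutant (-2.78, limma adjusted p = 0.000262) and no other marker of these lists was called. The part of these cells in the members' changes was not tested.

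By correlation over the 11 arrays, the genes most like Aqp4 1434449_at were Tpbgl (Pearson r = 0.986), Sel1l3 (0.983), Slc7a2 (0.976), Plcd4 (0.975) and Atpaf1 (0.973). Those most like Dmd were Dcun1d2 (0.973), B4gat1 (0.973), Narf (0.972), Mybpc2 (0.969) and 5730455P16Rik (0.967). Those most like Utrn were Nrxn3 (0.897), Lin54 (0.878), Rnpc3 (0.873), Dync2li1 (0.871) and Yap1 (0.867). These describe the same 11 arrays, which share the denervation split, and carry no p.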

How the data were processed

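The deposited values were used as the authors made them: a linear intensity per probe set, scaled to a common 2% trimmed mean on every array, as the values show; the sources used here do not name the software. There were 45101 probe sets in the table. Groups came from the sample titles, and 0 columns lay outside the 4 groups. Signals were used as log2(intensity + 16). A probe set was kept if it exceeded the median of its array on 2 or more of the 11 arrays, and the 64 control probe sets were left out, leaving 26170. In the platform annotation 34958 of all probe sets had 1 gene symbol, 932 had several and 9211 were not listed. A gene was represented by its brightest kept probe set (12214 genes).

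With limma 3.58.1 in R 4.3.3, group means were estimated from the 11 arrays together (eBayes with trend, Benjamini-Hochberg adjustment per comparison, threshold 0.05). Single values were compared with exact permutation tests in scipy 1.17.1, where 3 against 3 arrays allow no p below 0.1; no result rests on these. Members and lists were chosen with earlier results of these data known. Named genes were all members, up to 4 of each list with the smallest p for denervation in control, and the 5 closest in correlation; Nos1, Itga7 and Myh2, called by genotype, and Bgn, which rose, were named after their values were seen. Equal replicate numbers correlated in their deviations from the group means at 0.11, 0.22 and 0.30 between denervated and innervated control arrays and at -0.18 to 0.10 elsewhere. Alternatives were other pseudocounts, filters and scalings, a replicate block, a 3′ to 5′ covariate, no variance trend and each array left out. Counts with the pseudocount of 256 and the block in control arrays alone were added after seeing the data. The fits were tested on simulated data, in which 200 of 26170 probe sets were changed. A log2 change of 1 was recovered in 27% of cases for denervation in mutant and 45% in control. For genotype the share was 39% in denervated and 30% in innervated muscle, and for the interaction 14%. These rates hold for that simulated setting, and a change that did not pass is not shown to be absent.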

Additional observations from a re-analysis of the deposited data

Results flagged for a closer look

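The denervation change of Aqp4 1434449_at differed between the genotypes by the interaction term of the limma fit. The other Aqp4 probe sets, 1425382_a_at and 1447745_at, did not pass it (3.19 and 0.47, limma adjusted p = 0.342 and 0.941). For 1434449_at the change in mutant muscle minus that in control muscle was 2.65 log2 units (limma adjusted p = 0.0257), from -2.97 in mutant and -5.62 in control muscle. The call held in 15 of 22 alternatives, with an adjusted p of 0.0101 to 0.109.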

How the results depend on the processing

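Over the tested probe sets of the 8 genes, 2646 alternative values kept the direction and side of the threshold, 87 lost the call, 22 gained it and 10 reversed; differences that passed under neither setting were not read for sign. The reversals were all under spike-in centring for denervation in control: Aqp1 0.32, Dmd 1443315_at 0.42, Dag1 0.71, 0.82 and 0.85, Sgca 0.91, Sgcb 0.73 and 0.29, and Dtna 0.53 and 0.89. Under that centring, denervation in control called 17399 probe sets, genotype in denervated muscle 3295 (14 of the members) and the interaction 104 (3 of the members). With the 3′ to 5′ covariate, denervation in mutant called 3320 (9 members) and denervation in control 4488 (5 members). Without the variance trend, genotype in denervated muscle called 279 (4 members), genotype in innervated muscle 3 and the interaction 10 (0 members). Leaving out 1 array at a time gave 4337 to 8082 calls (12 to 17 members) for denervation in mutant, 6174 to 7603 (11 to 13) in control, 223 to 638 (3 to 8) for genotype in denervated muscle, 0 to 12 (0 to 0) in innervated muscle and 16 to 108 (0 to 1) for the interaction. Without denervated control 3, the members called were 17 for denervation in mutant, 12 in control, 5 by genotype in denervated muscle, 0 in innervated muscle and 1 for the interaction. The causes were not tested. With the replicate number as a block, the fit gave 6083 calls for denervation in mutant (17 members), 7515 in control (12), 460 by genotype in denervated muscle (7) and 45 for the interaction (1). The sample titles do not say that equal replicate numbers are paired. A block in the control arrays alone, where deviations of equal numbers correlated at 0.11, 0.22 and 0.30, gave 8312 calls and added Dtna 1425292_at (13 members). The number of arrays and the Trp background limit the Aqp4 fold.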
